A study of Homo sapiens with 47 samples.

Results

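MicroRNAs (miRNAs) were measured by small RNA sequencing in 22Rv1 cells kept for 24 h at 0% O2 in a hypoxia chamber (anoxia, 2 libraries) and in 22Rv1 cells kept in normoxia as the control belonging to that O2 level (95% air, 2 libraries). These 4 libraries were taken by their labels from 47 in the series. 22Rv1 is an established human prostate cancer line derived from a xenograft that relapsed after castration of the host, and it expresses the androgen receptor. The groups shared the line, the medium (RPMI with serum, antibiotics and glutamine), the RNA kit and the library kit, and the labels name no engineered allele and no drug for either. The series also holds 22Rv1 cells at 5 levels from 0.2 to 5% O2 (0.2%, then 0.5%, 1%, 2% and 5%), each with normoxia controls of its own (19 libraries) and PC-3, a prostate cancer line from a bone metastasis that is androgen receptor-negative, under the same 6 O2 levels (24 libraries), 4 of them at 0% O2 and its control. Each condition in 22Rv1 rests on 1 line, and the labels do not say whether the 2 libraries of a group came from separate cultures. The p-values rest on how far libraries of a group differ, a spread that may be technical. In the main tests that spread was estimated over all 23 22Rv1 libraries, or over all 47 for the difference of the lines.

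A miRNA hairpin is cut into a short duplex, of which usually one arm (5p or 3p) is loaded into Argonaute and kept, while the other is degraded and found at a lower level. Bases 2 to 8 of the loaded arm, the seed, pair with target mRNAs and repress them. When O2 falls, prolyl hydroxylases stop marking hypoxia-inducible factor (HIF) alpha subunits for degradation and HIF activates transcription. miR-210 is its best known miRNA target, and acts on iron-sulfur cluster assembly and mitochondrial respiration.

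At 0% O2, 30 of the 552 tested miRNAs differed from the control, 22 higher and 8 lower. That is a background of 5.43% called in either direction, 3.99% higher and 1.45% lower (edgeR quasi-likelihood test, Benjamini-Hochberg adjusted p under 0.05, which is what called means here). Leaving out 1 of the 4 libraries left 10 to 15 calls, scaling to the library total without TMM 18, a replicate block within each O2 level 51, and a fit of the 4 libraries alone 107. Among miRNAs with a mean of at least 20 CPM, those that rose included both arms of miR-210, miR-30b-3p, miR-27a-5p, miR-190b and miR-22-5p, and abundant miRNAs such as miR-30d-5p, miR-21-3p, miR-141-5p and miR-148a-5p. Those that fell, with the same minimum, were led by miR-191-3p, miR-33b-3p, miR-26b-3p and miR-30c-1-3p. Of the 30, 16 were the less abundant arm of a hairpin. miR-148a-5p rose at 0% O2 and had values below its controls at every level between 0.2 and 2% O2. CPM are shares of a library from a bulk sample, so they do not show a change in cell number or in the total miRNA per cell. How reads that match several near-identical miRNAs (such as miR-320b and its relatives) were counted is not stated, and their values are uncertain to that extent.

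The sequences below are those on which the results turn and that the RefSeq miRNA table (GRCh38.p14) holds, with the seed in capitals. The first set gives both arms of miR-210 and, for 6 further hairpins, the arm that was called followed by the arm that was not, to show that the called arm carries a seed unlike that of the arm by which the hairpin is usually known.
miR-210-5p: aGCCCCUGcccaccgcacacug
miR-210-3p: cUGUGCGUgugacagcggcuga
miR-27a-5p: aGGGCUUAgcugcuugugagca
miR-27a-3p: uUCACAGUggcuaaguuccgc
miR-22-5p: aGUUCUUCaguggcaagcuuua
miR-22-3p: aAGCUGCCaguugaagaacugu
miR-152-5p: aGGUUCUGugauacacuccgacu
miR-152-3p: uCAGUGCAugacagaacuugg
miR-191-3p: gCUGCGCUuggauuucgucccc
miR-191-5p: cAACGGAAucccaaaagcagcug
miR-26b-3p: cCUGUUCUccauuacuuggcu
miR-26b-5p: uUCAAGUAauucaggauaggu
miR-33b-3p: cAGUGCCUcggcagugcagccc
miR-33b-5p: gUGCAUUGcuguugcauugc
miR-1246 and miR-1290, both of 19 bases, are shown because they rose together and share a run of 12 bases, uggauuuuugga, from position 3 of miR-1246 and position 1 of miR-1290. The shared run is offset, so their seeds differ.
miR-1246: aAUGGAUUuuuggagcagg
miR-1290: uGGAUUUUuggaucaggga
Sequences were matched for 475 of the 552 tested miRNAs and 22 of the 30 called, and the 22 had 22 different seeds. Called miRNAs without a matched sequence, such as miR-30d-5p and miR-190b, are in no seed group here. Of the 52 seeds that 2 or more matched miRNAs share, 2 had a called matched member. One is the seed of miR-320b, which rose (log2 0.62) while miR-320c and miR-320d were not called. The other is that of miR-30c-1-3p, which fell, and miR-30c-2-3p, which was not called (log2 0.34). In none of the 52 were all matched members called.

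The 4 libraries were of like depth, with totals of 2288495 and 2166394 counts at 0% O2, against 2453208 and 2428021 counts in the control, within 960421 to 3181344 over the 23 22Rv1 libraries. CPM below are counts scaled by TMM (trimmed mean of M values) to a common library total, and 1 CPM stands for 2.09 and 2.26 counts at 0% O2 and 2.56 and 2.76 counts in the control. The epithelial markers of the line (12 miR-200 family and related entries, tested or not) summed to 42265 and 39008 CPM of the unscaled total at 0% O2. In the control they summed to 39751 and 34697. Of these entries 9 were tested and 1, miR-141-5p, was called. Of the tested markers of other sources, none was called: 4 of smooth muscle or stroma, 3 of blood, 7 of neurons, 1 of liver and 4 of PC-3-like lines. All 8 entries listed for smooth muscle or stroma, tested or not, summed to 210 and 183 CPM of the unscaled total at 0% O2, against 199 and 171. That sum holds miR-199a-3p and miR-199b-3p, whose counts are identical. All 8 entries listed for PC-3-like lines summed to 107.49 and 122.32, against 120.25 and 151.98. The sums were higher for the 8 entries listed for blood, at 2060 and 1842, against 1907 and 1843. For the 8 listed for neurons they were 1216 and 1278, against 1180 and 1363. The 1 liver entry was at 10.9 and 6.46, against 6.11 and 9.47. None of the 5 most abundant miRNAs was called, namely miR-191-5p and let-7a-5p, then miR-148a-3p, miR-182-5p and miR-22-3p. Among them miR-148a-3p took 8.10 and 8.11% of counts at 0% O2, against 5.67 and 6.50% in the control (log2 0.57, standard error 0.24, adjusted p = 0.198, edgeR).

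miR-210, whose hairpin lies in an intron of MIR210HG (GENCODE 29, GRCh38, chromosome 11, 568089 to 568198, minus strand), rose in both arms. miR-210-3p, the arm that represses the iron-sulfur scaffold ISCU, was at 2573 and 2813 CPM at 0% O2, against 1230 and 1272 CPM in the control. The libraries at 0% O2 both lay above both controls, a 2.15-fold rise (log2 1.11, standard error 0.17, edgeR adjusted p = 4.03e-05). Its less abundant arm miR-210-5p was at 430 and 404 CPM at 0% O2, against 123 and 89.9 CPM in the control, again with no overlap (3.95-fold, log2 1.98, standard error 0.23, adjusted p = 2.67e-06). Per 1000 counts of miR-210-3p there were 167 and 144 of miR-210-5p at 0% O2, against 100 and 70.7 in the control. Both calls were kept without any 1 of the 4 libraries.

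Members of the miR-30 family, which are broadly expressed and whose shared 5p seed has been linked to autophagy and differentiation genes, gave the most significant call. miR-30b-3p was at 161 and 144 CPM at 0% O2, against 32.0 and 33.7 CPM in the control. The groups did not overlap, a 4.62-fold rise (log2 2.21, standard error 0.19, edgeR adjusted p = 1.26e-08). The other arm, miR-30b-5p, was at 4205 and 5585 CPM at 0% O2, against 3209 and 3789 CPM in the control, and was not called (log2 0.47, adjusted p = 0.577). The neighbouring hairpin miR-30d changed in both arms. miR-30d-3p was at 392.49 and 383.31 CPM at 0% O2, against 173.12 and 151.95 CPM in the control (2.39-fold, log2 1.25, standard error 0.18, adjusted p = 2.24e-05). miR-30d-5p, at 39815 and 41523 CPM at 0% O2 and 22316 and 24211 CPM in the control, was the most abundant called miRNA (1.75-fold, log2 0.81, standard error 0.16, adjusted p = 0.00186). Without control replicate 1 the adjusted p of miR-30d-5p was 0.063, and scaling to the library total without TMM gave 0.082, with the same direction. From another locus, miR-30c-1-3p, in an intron of NFYC, fell to 26.3 and 23.4 CPM at 0% O2, against 44.9 and 43.2 CPM in the control (log2 -0.82, adjusted p = 0.0287), a call that no omission of 1 library kept (adjusted p 0.097 to 0.327). Of 11 tested members of the family, 3 rose, 1 fell and 7 were not called, with a median log2 change of 0.09. Over all 552, 5.43% were called and the median was 0.01.

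Other miRNAs with a called rise came from loci scattered over the genome. miR-27a-5p, the lesser arm of a hairpin that is androgen-regulated in prostate cells and lies with miR-23a on chromosome 19, was at 106 and 129 CPM at 0% O2, against 29.3 and 31.9 CPM in the control. The groups did not overlap (3.83-fold, log2 1.94, standard error 0.27, edgeR adjusted p = 2.24e-05). The other products of that cluster were not called, with log2 changes of 0.46 for miR-23a-3p (adjusted p = 0.067), 0.36 for miR-27a-3p, 0.38 for miR-23a-5p and 0.11 for miR-24-2-5p. miR-190b, in an intron of the tropomyosin gene TPM3, was at 110 CPM in both libraries at 0% O2, against 40.3 and 23.9 CPM in the control (3.47-fold, log2 1.79, standard error 0.28, adjusted p = 7.67e-05). miR-22-5p, from an exon of MIR22HG, was at 64.6 and 73.3 CPM at 0% O2, against 27.7 and 21.4 CPM in the control (2.82-fold, log2 1.50, standard error 0.22, adjusted p = 4.03e-05). These 3 calls were kept without any 1 of the 4 libraries.

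The family of miR-148a, miR-148b and miR-152, whose 3p arms share a seed and repress DNA methyltransferase DNMT1, had 2 called members among 6 tested. Both were 5p arms that rose, and the median log2 change over the 6 was 0.62. Over all 552 tested miRNAs, 5.43% were called and the median was 0.01. The 6 include both arms of each hairpin, so they are not independent measurements. miR-152-5p, from an intron of COPZ2, was at 51.7 and 47.7 CPM at 0% O2, against 19.9 and 17.0 CPM in the control (2.69-fold, log2 1.43, standard error 0.28, edgeR adjusted p = 0.00143). Without anoxia replicate 1 or control replicate 2 its adjusted p was 0.0503 and 0.0617. miR-148a-5p is described with the O2 levels below. The 3p arms were at log2 0.57 (miR-148a-3p), 0.67 (miR-152-3p, adjusted p = 0.0962) and 0.09 (miR-148b-3p), and the remaining 5p arm, miR-148b-5p, was at -0.22, none of them called.

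Among abundant miRNAs, miR-21-3p, the lesser arm of the growth-promoting miR-21 from an exon of VMP1, was at 1339 and 1323 CPM at 0% O2, against 671 and 723 CPM in the control. The groups were separate (1.91-fold, log2 0.93, standard error 0.20, edgeR adjusted p = 0.00344), and miR-21-5p was not called (log2 0.31, adjusted p = 0.350). miR-141-5p, of the epithelial miR-200 family that restrains ZEB1 and ZEB2, was at 2088 and 2247 CPM at 0% O2, against 1367 and 1380 CPM in the control (1.58-fold, log2 0.66, standard error 0.16, adjusted p = 0.0109). All 7 tested members of that family had log2 changes above 0 (lowest 0.10), and the other 6 were not called. Over all 552 tested miRNAs, 282 were above 0, and the 7 include both arms of some hairpins. The call of miR-141-5p was lost in each of the 4 omissions of 1 library (adjusted p 0.094 to 0.159) and that of miR-21-3p in 3 of 4 (0.053 to 0.097), and both were lost with scaling to the library total without TMM (0.36 and 0.063). miR-132-5p (log2 0.73), miR-574-3p (0.72), miR-320b (0.62) and miR-664a-3p (0.81) also rose, each with adjusted p between 0.0134 and 0.0482 and each called in at most 1 of 4 omissions. The call of miR-664a-3p was lost in 8 of 12 alternative settings (adjusted p up to 0.255), among them DESeq2 and no replicate block, and that of miR-320b in 3 of 12 (up to 0.313), among them no replicate block.

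miRNAs that fell were fewer. miR-191-3p, the rare arm of the most abundant hairpin of these cells, in an intron of DALRD3 on chromosome 3 (49020618 to 49020709, minus strand), was at 47.9 and 48.1 CPM at 0% O2, against 122 and 153 CPM in the control. The control libraries both lay above both libraries at 0% O2, a 2.85-fold fall (log2 -1.51, standard error 0.20, edgeR adjusted p = 1.75e-05), and the call was kept without any 1 library. miR-191-5p had 190053 and 144192 CPM at 0% O2, against 153895 and 122627 CPM in the control (log2 0.27, adjusted p = 0.70). miR-425-5p and miR-425-3p of the neighbouring hairpin had log2 changes of -0.11 and -0.09.

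miR-33b-3p, from an intron of the sterol regulator gene SREBF1, was at 23.5 and 27.8 CPM at 0% O2, against 60.6 and 43.2 CPM in the control (log2 -1.01, standard error 0.27, edgeR adjusted p = 0.0287). Its other arm miR-33b-5p, which represses the cholesterol exporter ABCA1, was not called (log2 0.19). miR-26b-3p, in an intron of the phosphatase gene CTDSP1, was at 106 and 140 CPM at 0% O2, against 199 and 268 CPM in the control (log2 -0.92, standard error 0.21, adjusted p = 0.00665), and miR-26b-5p was not called (log2 0.24). miR-335-3p, in an intron of the imprinted gene MEST, was at 1331 and 1375 CPM at 0% O2, against 1986 and 2176 CPM in the control (log2 -0.62, standard error 0.14, adjusted p = 0.00713). The groups did not overlap for any of the 3. Omitting 1 library ended the calls of miR-26b-3p and miR-335-3p in each of 4 cases (adjusted p 0.053 to 0.094 and 0.056 to 0.109) and that of miR-33b-3p in 3 of 4 (up to 0.39), and the call of miR-26b-3p was also lost without the replicate block.

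**Figure D1:**
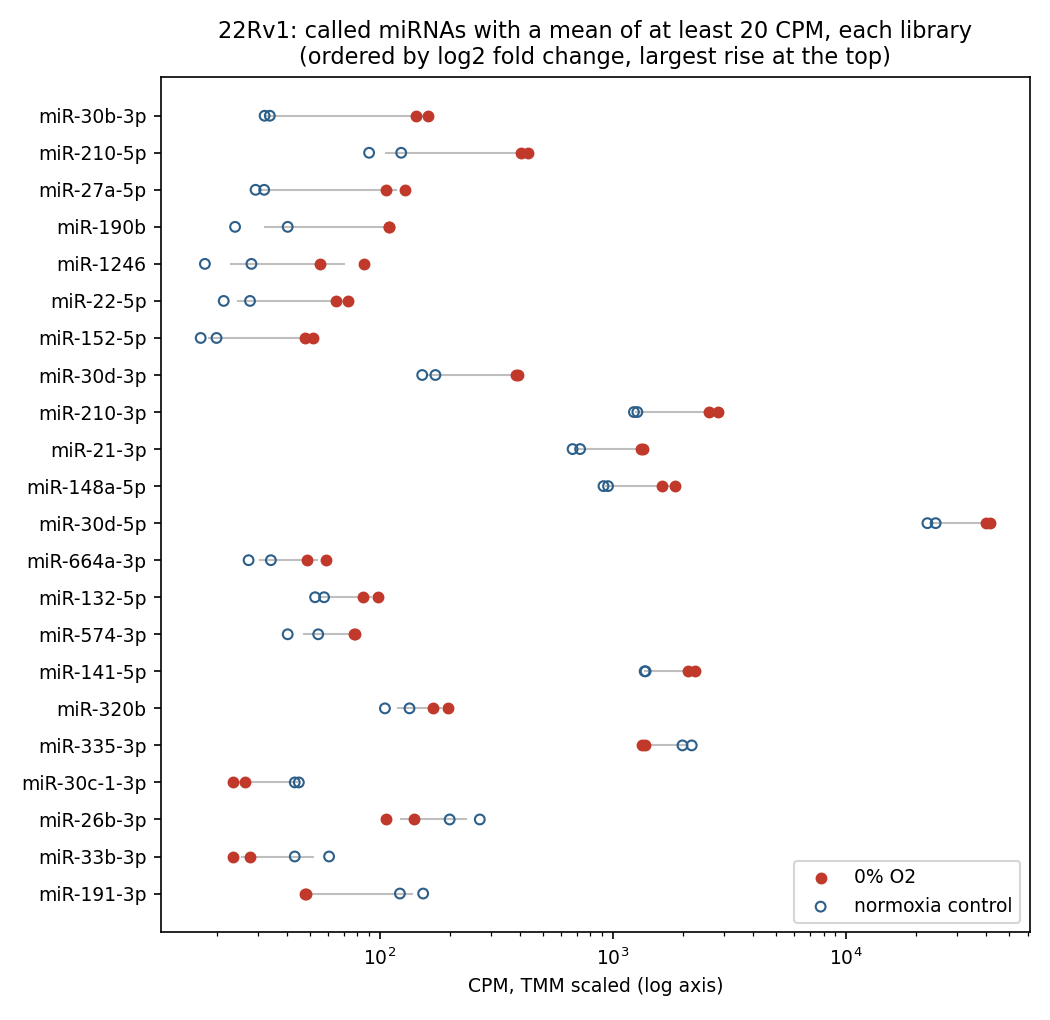
CPM (log axis) of the 22 called miRNAs with a mean of at least 20 CPM in each of the 4 libraries, filled points for 0% O2 and open points for the normoxia control, with a line between the group means. For every one of the 17 that rose and the 5 that fell, the points of the 2 groups lie apart.

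All 30 called miRNAs had groups that did not overlap, as did 49.3% of all tested miRNAs, and all 30 moved the same way in both pairs of equal replicate number. At an unadjusted p under 0.05 there were 88 miRNAs. The median log2 change over all 552 was 0.01, with 282 above 0 and 270 below.

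The rarer called entries rest on few counts and 8 of the 30 had a mean under 20 CPM. miR-1290, which has been reported in the serum of cancer patients, was at 15.8 and 12.4 CPM at 0% O2, against 1.95 and 1.45 CPM in the control (8.06-fold, log2 3.01, standard error 0.45, edgeR adjusted p = 4.03e-05). It passed the filter on low values only through the libraries at 0% O2, since it reached 5 CPM in 0 of the other 21 22Rv1 libraries, so a difference was built into its being tested. miR-1246, which has been reported to include fragments of the spliceosomal U2 RNA, was at 85.2 and 55.6 CPM at 0% O2, against 28.1 and 17.8 CPM in the control (log2 1.62, standard error 0.39, adjusted p = 0.0162). Its call was lost in each of 4 omissions (adjusted p 0.097 to 0.181) and without the replicate block (0.20). The 8 low entries also include miR-155-5p, known from immune cells (15.8 and 20.3 CPM at 0% O2, against 8.21 and 7.25 CPM, log2 1.23), and miR-4485-3p, miR-4671-3p and miR-3620-3p, which rose, and miR-6768-5p, miR-1272 and miR-551b-5p, which fell. Counting error is wide at these levels, and the calls of miR-155-5p, miR-4485-3p, miR-3620-3p and miR-551b-5p were lost with DESeq2. Those of miR-155-5p and miR-4485-3p were also lost in each of 4 omissions (adjusted p 0.077 to 0.454 and 0.097 to 0.336). With 1 library omitted the log2 change ran from -6.87 to -1.36 for miR-551b-5p and from 2.04 to 6.71 for miR-4671-3p.

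Lists of related miRNAs were read by counts beside the background of 5.43%. The lists name hairpins, so every tested arm of a listed hairpin is a member, whichever arm a report concerns. Arms of 1 hairpin are not independent measurements. The lists were chosen with earlier results of these data known, so the counts are descriptions and no support. Both arms of miR-210 rose. Of 32 tested miRNAs described as hypoxia-linked in tumour cells, miR-210 aside, 2 rose (miR-30b-3p and miR-27a-5p), 1 fell (miR-26b-3p) and 29 were not called, with a median log2 change of 0.12. All 3 are the less abundant arm of their hairpin. Of 16 tested miRNAs from hairpins reported to target HIF1A, 2 rose (miR-22-5p and miR-155-5p) and the median was -0.20. miR-155-5p had a mean under 20 CPM and its call was lost in each of 4 omissions. miR-22-3p, the abundant arm of the miR-22 hairpin and also on this list, was not called (log2 0.17, edgeR adjusted p = 0.673). Of 21 androgen receptor-linked miRNAs, 4 rose (miR-27a-5p, miR-148a-5p, miR-21-3p and miR-141-5p) and 0 fell, with a median of 0.31. These 4 are all less abundant arms. With 1 library omitted, miR-27a-5p was called in 4 of 4 cases, miR-148a-5p in 3, miR-21-3p in 1 and miR-141-5p in 0.

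No called member was found among 19 miRNAs linked to the unfolded protein response, 18 of let-7/miR-98, 12 of miR-15/16, 7 of miR-29, 7 of miR-181, 5 of the miR-183 cluster and 5 regulated by p53. With 5.43% called over all 552, having 0 calls does not set lists this short apart. Their median log2 changes were, in that order, -0.06, -0.03, -0.02, 0.005, 0.28, -0.13 and 0.10, against 0.01 over all 552. The growth-promoting miR-17 family with its paralogues likewise had 0 called of 21 (median log2 -0.16), with miR-25-5p at -0.61 (adjusted p = 0.067), miR-20b-5p at -0.54 (0.143) and miR-20a-5p at -0.41 (0.167). The 4 neuroendocrine-linked miRNAs, relevant because prostate cancer can take on neuroendocrine features, were not called, with miR-7-5p at log2 -0.48 (adjusted p = 0.118) and miR-375 at 0.28 (0.544). Of 11 tested entries that resemble fragments of other RNAs, a sign of RNA quality, 3 rose (miR-1290, miR-1246 and miR-4485-3p) and the median was -0.20. This count is a description. miR-1290 was tested only because of its level at 0% O2. The calls of miR-1246 and miR-4485-3p were lost in each of 4 omissions of 1 library. All 13 entries of that list, tested or not, summed to 487 and 430 CPM of the unscaled total at 0% O2, against 491 and 481 in the control.

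The arms of the called hairpins were then compared. In 159 tested miRNAs that are the less abundant arm of a hairpin with both arms tested, 16 were called, 11 higher and 5 lower (10.1%). In the 141 miRNAs classed as more abundant arms, 5 were called (3.55%). The classes differ in size because arms without a locus number, such as miR-30c-5p and miR-16-5p, were not matched back to their partners. The shares are therefore not of matched pairs. miR-30c-5p, the other arm of miR-30c-1-3p here, is also that of miR-30c-2-3p. Less abundant arms were 53.3% of the calls and 28.8% of the tested miRNAs. In 14 of the 16 the other arm was not called, the exceptions being miR-210-3p and miR-30d-5p, and in 12 of 16 it had the same sign. In all 16 the change of the other arm was smaller in size. The 16 were chosen because the less abundant arm was called, which favours a larger change in that arm. Both arms of a hairpin come from 1 precursor, so these are not independent measurements, and no test of the share was made.

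Ratios within a hairpin do not depend on library scaling. The hairpins below were chosen because an arm was called, which favours a shifted ratio. Per 1000 counts of miR-22-3p there were 1.41 and 1.80 of miR-22-5p at 0% O2, against 0.68 and 0.59 in the control. For miR-27a the 5p arm made up 53.9 and 77.9 per 1000 of the 3p arm at 0% O2, against 19.7 and 24.0 in the control. For miR-30b the 3p arm made up 38.4 and 25.7 per 1000 of the 5p arm at 0% O2, against 9.99 and 8.90. In these 3 hairpins the ratio was higher in both libraries at 0% O2 than in both controls. It was lower in both for miR-191 (0.25 and 0.33 per 1000 at 0% O2, against 0.79 and 1.25 in the control), for miR-26b (5.46 and 7.70, against 11.5 and 18.2) and for miR-33b (133 and 172, against 388 and 305). miR-574-3p had 1087 and 1080 counts per 1000 of miR-574-5p at 0% O2, against 468 and 625 in the control. For miR-141 the ratios overlapped between groups, with 135 and 220 per 1000 at 0% O2, against 123 and 174. Less abundant arms as a class did not take a larger part of the library, with 2.13 and 2.35% of counts at 0% O2, against 2.25 and 2.46% in the control and 1.43 to 2.46% over all 11 22Rv1 controls.

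**Figure D2:**
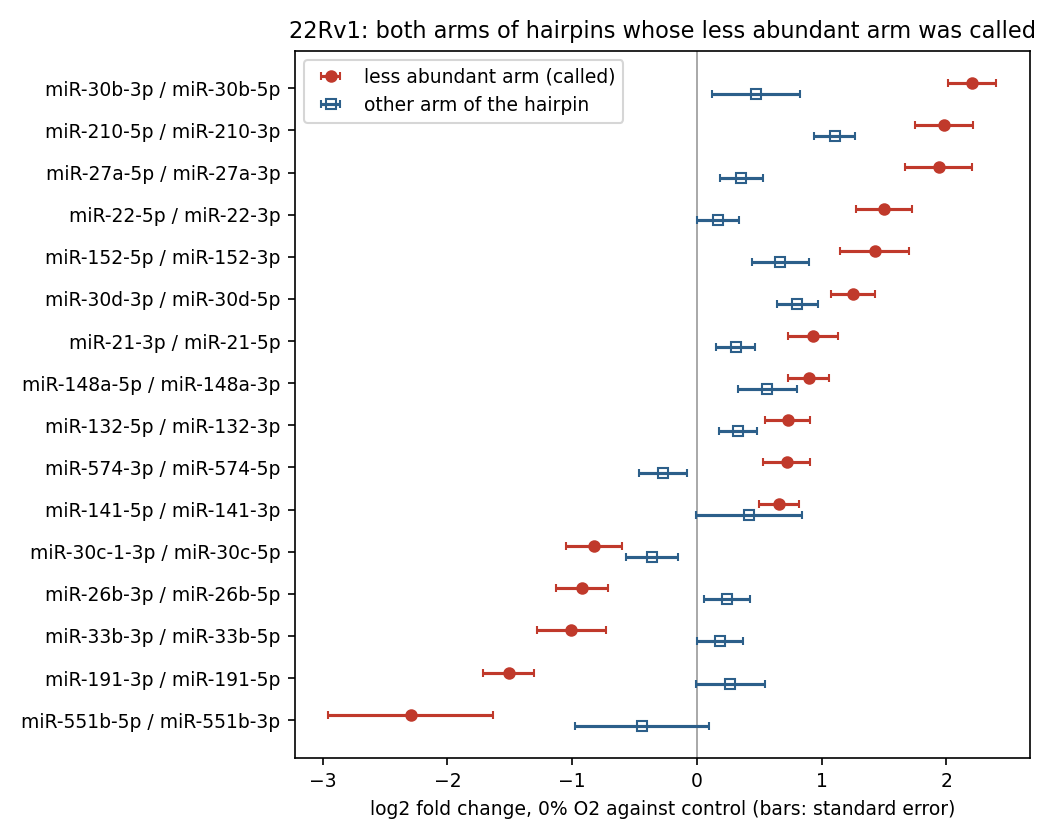
Log2 fold change with standard error at 0% O2 against the control for the 16 called less abundant arms (filled circles) and the other arm of each hairpin (open squares). The squares lie nearer to 0 than the circles in every row, and only miR-210-3p and miR-30d-5p among them were called. The rows were chosen because the circle was called, which favours larger values in the circles.

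The response at 0% O2 was next set against that at the other O2 levels, each against its own control, so that no library is shared between levels. Beside the 30 calls at 0% O2, the level of 0.2% had 5 (0.906%), of which 4 were higher (0.725%) and 1 lower (0.181%), with a control of 1 library. The level of 0.5% had 28 (5.07%), with 14 higher and 14 lower (2.54% each). The level of 1% had 7 (1.27%), with 6 higher (1.09%) and 1 lower, that of 2% had 2 (0.362%) and that of 5% had 1 (0.181%), all higher. Of those called at 0%, 4 were among the 5 at 0.2%, 11 among the 28 at 0.5%, 5 among the 7 at 1%, and the 2 at 2% and the 1 at 5% were also called at 0%. The number called thus did not follow the order of the O2 levels. In the mean of the other 5 levels, 28 of the 30 had the same sign as at 0%, and the share over all tested miRNAs was not counted. All 30 were larger in size at 0% than in that mean and 23 were largest at 0% of the 6 levels, but they were chosen on their change at 0%, which favours large values there.

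The difference between levels was therefore tested over all 552 miRNAs. The effect at 0% O2 minus the mean effect of the other 5 levels was called for 5 miRNAs (0.906%), 4 higher (0.725%) and 1 lower (0.181%). These were miR-30b-3p (difference in log2 1.60, standard error 0.21, edgeR adjusted p = 2.79e-05), miR-148a-5p (1.34, standard error 0.18, adjusted p = 2.79e-05), miR-22-5p (1.34, standard error 0.25, adjusted p = 0.00201), miR-191-3p (-1.06, standard error 0.22, adjusted p = 0.00823) and miR-1290. For miR-1290 the value (3.01) is a description, since it was tested only because of its level in the libraries at 0% O2. With a replicate block within each O2 level 12 differences were called, with DESeq2 8, without the 3 libraries that stood apart from the others 9, and without 1 of the 4 libraries at 0% O2 and its control 2 to 4. That of miR-191-3p was lost in 3 of these 4 omissions (adjusted p up to 0.335). Against the mean of the nearest levels alone, 0.2 and 0.5%, 4 were called (0.725%), all higher: miR-148a-5p (1.51), miR-30b-3p (1.42), miR-22-5p (1.48) and miR-1290 (3.16, again a description). The lower call of miR-191-3p was not made there (difference -0.79, adjusted p = 0.42).

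miR-148a, which is raised by androgen in prostate cancer cells, stood out by its direction. miR-148a-5p was at 1841 and 1628 CPM at 0% O2, against 911 and 952 CPM in its control (1.86-fold, log2 0.90, standard error 0.16, edgeR adjusted p = 6.00e-04). At 0.2% O2 it was at 598 and 541 CPM, against 896 CPM in the single control, and at 0.5% at 503 and 590 CPM, against 711 and 916 CPM. At 1% it was at 631 and 566 CPM, against 911 and 922 CPM, and at 2% at 706 and 752 CPM, against 972 and 1039 CPM. The libraries at 0% thus lay above all controls of the line and above all other levels, and those at 0.2 to 2% lay below all 22Rv1 controls save 1 of the 0.5% level. At 5% the values were 1194 and 955 CPM, against 972 and 1028 CPM, and overlapped.

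In terms of log2 change the levels from 0 to 5% gave 0.90, -0.66, -0.57, -0.61, -0.46 and 0.10 for miR-148a-5p. Of the negative values only that at 0.5% was called (adjusted p = 0.0399, with 0.0578 at 1%, 0.114 at 0.2% and 0.424 at 2%), and their mean with that at 5% was -0.44 (standard error 0.08, adjusted p = 2.83e-04). Its difference between 0% and the other levels was kept in every omission of 1 library and every alternative setting, while the rise at 0% alone missed the threshold without anoxia replicate 1 (log2 0.76, adjusted p = 0.0519). The abundant arm miR-148a-3p ranged from 30635 to 88762 CPM over the 23 libraries, and its log2 changes from 0 to 5% were 0.57, -0.35, 0.36, 0.002, -0.19 and 0.004, with none called.

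**Figure D3:**
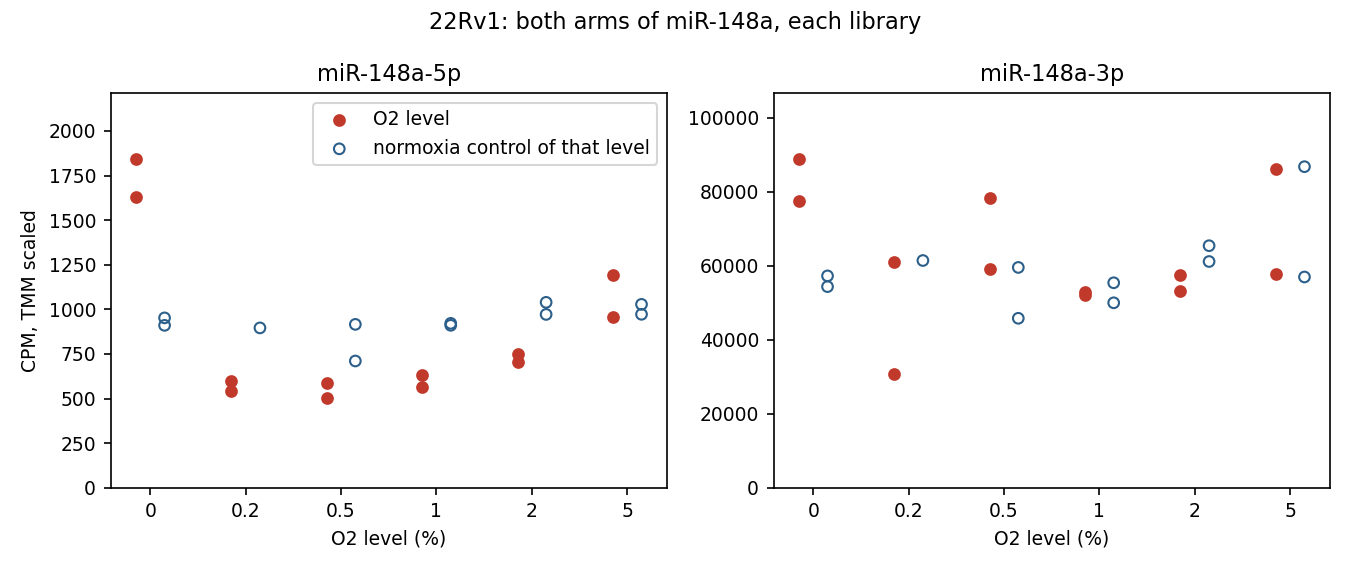
CPM of both arms of miR-148a in each 22Rv1 library by O2 level, filled points for the O2 level and open points for its normoxia control. For miR-148a-5p both points at 0% O2 lie above every other point and those from 0.2 to 2% lie below their own controls. The 3p arm shows no such pattern.

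miR-22-5p was called at 0% O2 and at no other level, with log2 changes from 0 to 5% of 1.50, 0.29, -0.25, 0.52, -0.20 and 0.41. The libraries at 0% lay at 64.6 and 73.3 CPM, and the other 21 22Rv1 libraries between 20.8 and 49.7 CPM. The difference from the other levels was lost without anoxia replicate 2 (1.17, adjusted p = 0.119) or control replicate 2 (1.20, adjusted p = 0.0967). miR-21-3p (0.93 at 0%, and between -0.08 and 0.38 elsewhere), miR-141-5p (0.66, and between -0.17 and 0.11) and miR-1246 (1.62, and between -0.24 and 0.73) had a like shape, but their differences from the other levels were not called (0.81, 0.63 and 1.53, adjusted p = 0.0929, 0.0929 and 0.11).

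miR-30b-3p and miR-191-3p changed at other levels too, and further at 0%. miR-30b-3p had log2 changes from 0 to 5% of 2.21, 1.01, 0.56, 0.88, 0.77 and -0.18, and was called at 0, 0.2 and 1%. Its libraries at 0% (161 and 144 CPM) stood above the range of 29.4 to 82.4 CPM of the other 21. miR-191-3p had log2 changes of -1.51, -0.29, -1.15, -0.48, -0.20 and -0.15, and was called at 0 and 0.5%. The difference of miR-191-3p from the other levels was lost in 3 of 4 omissions (adjusted p 0.052 to 0.335), with scaling to the library total without TMM and without the replicate block.

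miR-210 did not set 0% apart. The log2 changes of miR-210-3p from 0 to 5% were 1.11, 1.14, 0.87, 1.08, 1.07 and 0.78, and 0% exceeded the mean of the others by 0.12 (standard error 0.18, adjusted p = 0.973). Those of miR-210-5p were 1.98, 2.05, 1.88, 1.67, 1.50 and 0.40, with a difference of 0.48 (standard error 0.25, adjusted p = 0.844). miR-27a-5p had 1.94, 1.31, 1.51, 1.01, 0.50 and 0.19, and miR-190b 1.79, 2.02, 1.41, 1.40, 0.97 and 0.35, neither with a called difference (adjusted p = 0.11 and 0.90).

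**Figure D4:**
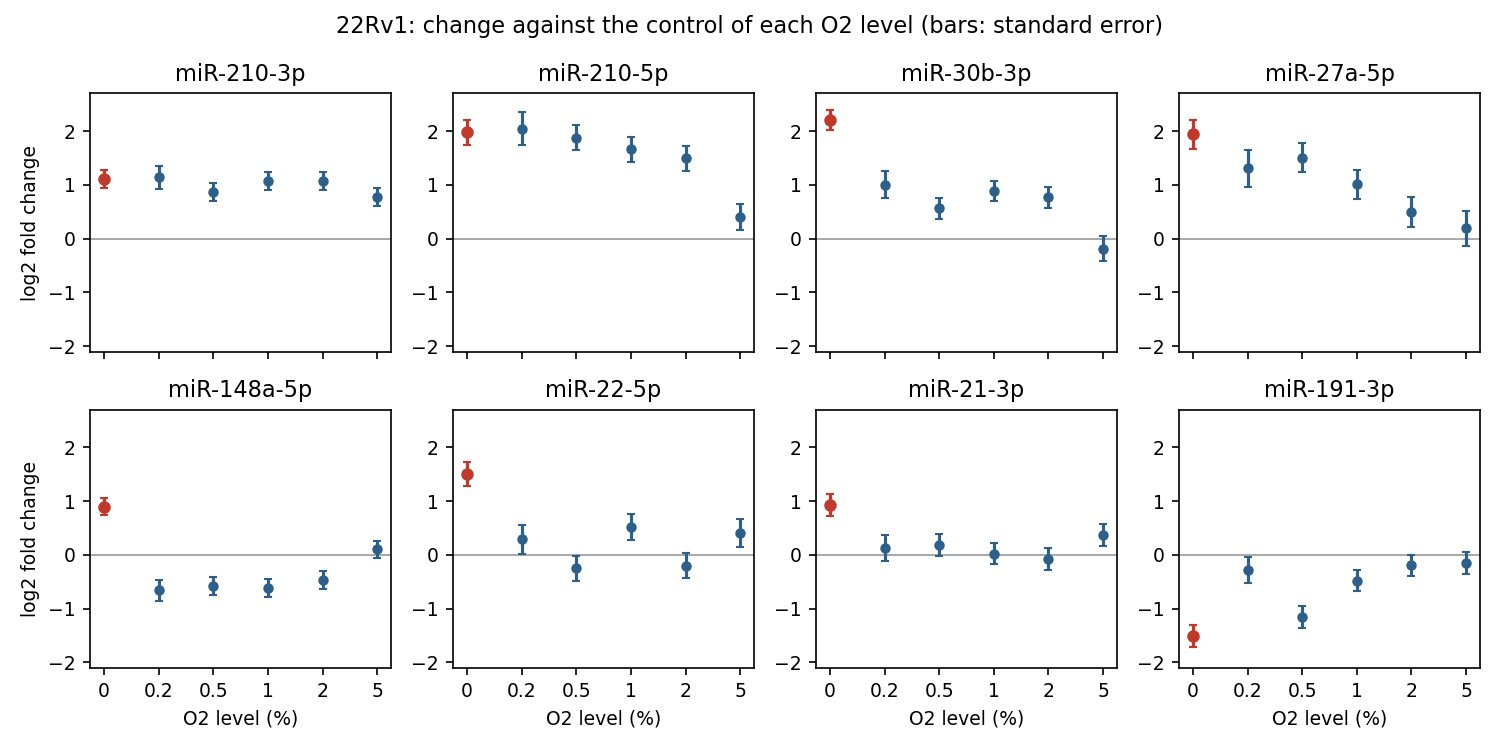
Log2 fold change with standard error of 8 called miRNAs against the control of each O2 level in 22Rv1, levels from 0 to 5% from left to right. miR-210-3p is near 1 at most levels, miR-30b-3p is highest at 0%, and miR-148a-5p is above 0 at 0% and below 0 from 0.2 to 2%.

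In PC-3 cells the same 24 h at 0% O2 changed 6 of 613 miRNAs tested over both lines (0.979%), 1 higher (0.163%) and 5 lower (0.816%). Of the 30 miRNAs called in 22Rv1, 19 had the same sign in PC-3. The share with the same sign over all tested miRNAs was not counted, so the 19 have no background here. Of the 30, 1 was called in PC-3, miR-551b-5p, which had a mean of only 3.45 CPM over the 4 22Rv1 libraries. The PC-3 calls come from the fit over both lines and the 30 from the fit of 22Rv1 alone, so these counts are not of like tests. The effect in 22Rv1 minus that in PC-3, tested directly, was called for 12 miRNAs (1.96%), 10 higher (1.63%) and 2 lower (0.326%). Of these 11 are among the 30. With a replicate block within each level 19 were called, and without 1 library 7 to 11.

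miR-210-5p was at 101 and 135 CPM in PC-3 at 0% O2, against 78.9 and 96.5 CPM in the PC-3 control, a log2 change of 0.43, and the lines differed by 1.56 (standard error 0.30, edgeR adjusted p = 0.00162). For miR-210-3p the PC-3 change was 0.61 and the difference of 0.50 was not called (standard error 0.24, adjusted p = 0.576). miR-30b-3p (PC-3 log2 0.69, difference 1.52), miR-27a-5p (0.49, difference 1.45), miR-30d-3p (0.31, difference 0.95) and miR-22-5p (0.14, difference 1.35) likewise rose more in 22Rv1. The difference of miR-30d-3p was kept in 4 of 8 omissions of 1 library (0.92 to 1.11). It was lost with scaling to the library total without TMM and without the replicate block. miR-26b-3p had changes of opposite sign in the lines. It was at 229 and 250 CPM in PC-3 at 0% O2, against 135 and 187 CPM in the PC-3 control (log2 0.57, not called). The difference of the lines was -1.49 (edgeR adjusted p = 8.74e-04). miR-21-3p, at 11020 and 9986 CPM in PC-3 at 0% O2, against 13184 and 11196 CPM in the PC-3 control, had a PC-3 change of -0.21 and a difference of 1.15 (adjusted p = 0.00469). miR-181a-3p, not called in 22Rv1 alone (log2 0.72), differed by 1.35 (adjusted p = 0.0216), and miR-191-3p by -1.04 (adjusted p = 0.0216). The difference of miR-181a-3p was lost in 5 of 8 omissions of 1 library (adjusted p up to 0.222) and 3 of 11 alternatives, and that of miR-191-3p in 7 of 8 (up to 0.394) and 4 of 11, both of them without the replicate block.

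The remaining 3 called differences, of miR-190b (3.72), miR-1290 (4.20) and miR-148a-5p (1.23), concern miRNAs that PC-3 held at no more than 14.2 CPM in any library of the level, so the change there rests on few counts, and miR-1290 again entered the test through 22Rv1 at 0% O2. The difference of miR-148a-5p was kept in 5 of 8 omissions of 1 library (1.09 to 1.66). It was lost with scaling to the library total without TMM and without the replicate block. That of miR-1290 was kept in 4 of the 6 omissions that could test it. Of the 12 differences, 5 were kept in every alternative and every omission of 1 library: those of miR-26b-3p, miR-210-5p, miR-30b-3p, miR-190b and miR-22-5p.

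**Figure D5:**
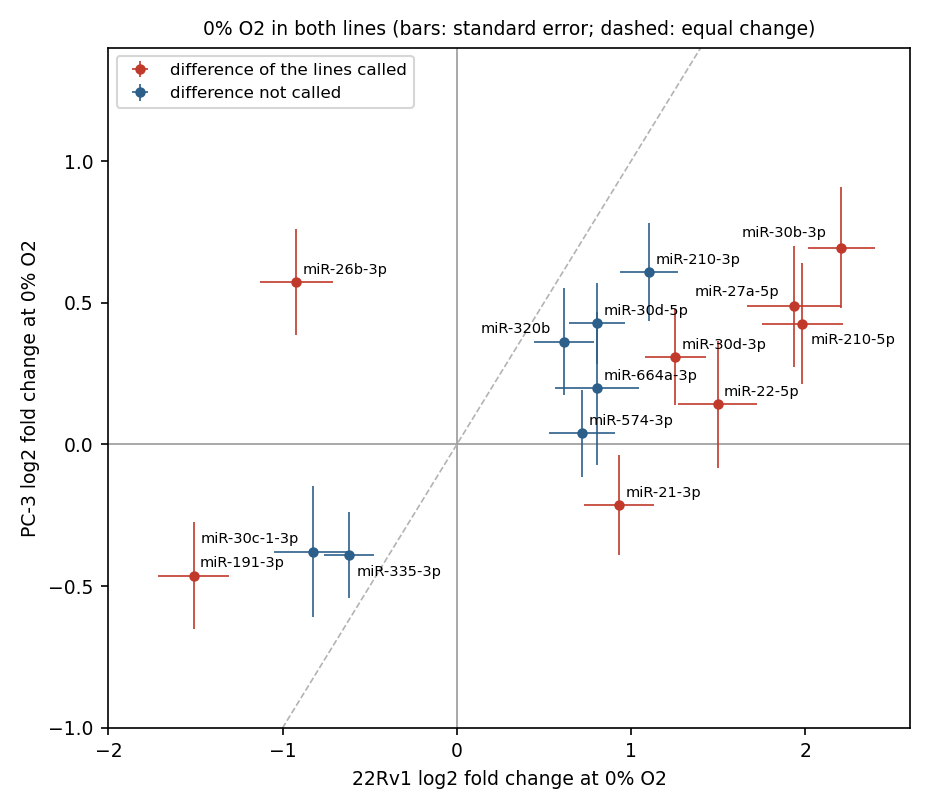
Log2 fold change at 0% O2 in 22Rv1 (horizontal) and PC-3 (vertical) with standard errors for the 15 called miRNAs with a mean of at least 20 CPM in both lines, the dashed line marking equal change. Most points lie nearer to 0 in PC-3 than in 22Rv1, and miR-26b-3p and miR-21-3p have opposite signs in the 2 lines. PC-3 values are from the fit over both lines and 22Rv1 values from the fit of 22Rv1 alone.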

How the data were processed

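The deposited file of whole-number counts gives reads per mature miRNA (1006 entries, 47 libraries), made by the authors from total RNA (miRNeasy) and TruSeq Small RNA libraries. The submitters' processing notes name FastQC and hg19, and the sources used here do not name the aligner or counter. The authors' second table holds CPM, checked to be these counts times 1 constant per library (largest relative difference 2.6e-09), and served only as an alternative scaling.

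Counts were tested in R 4.3.3 with edgeR 4.0.16 (robust quasi-likelihood, TMM scaling, two-sided). The fit took all 23 22Rv1 libraries, kept the 552 miRNAs that reached 5 CPM in 2 or more of them, and had 1 mean per group plus the replicate number as an additive block, leaving 10 residual degrees of freedom. The difference of the lines came from a like fit over 47 libraries (613 miRNAs). P-values were adjusted by Benjamini-Hochberg over all miRNAs tested. The 22Rv1 control of the 0.2% level has 1 library, whose spread is taken to equal that of other groups. The common biological coefficient of variation was 15.4%. Chi-square per degree of freedom was 42.6 between the libraries at 0% O2 and 24.4 between their controls, so in neither pair did the libraries agree within counting error. Of the entries, 24 form 9 sets with identical counts, none of them called.

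The replicate number is in the model because the selection of these libraries named it. Deviations of equally numbered libraries from their group means, over all tested miRNAs, correlated at 0.16 between 0% O2 and its control, 0.11 at the 0.5% level, 0.20 at 1%, 0.14 at 2% and 0.40 at 5%, all positive. The labels do not say what a number marks. Counts with the block within each level, which pairs the libraries, are therefore given beside the main ones. Named miRNAs are up to 12 per direction by size among called miRNAs of at least 20 CPM, up to 6 above 1000 CPM, both miR-210 arms, up to 4 called members per list by p (or 2 uncalled, as values), the 5 most abundant, and up to 5 per direction for each difference. miRNAs named beyond that, such as the other arms, the neighbours in a cluster and the rare called entries, were chosen after their values were seen. The members and the lists were chosen with earlier results of these data known. The less abundant arm is the one with the lower mean CPM over the 4 libraries. Loci and host genes are from GENCODE 29, matched by name, and sequences from RefSeq. The fit was tested on simulated data. Alternatives were other scalings, filters, DESeq2 1.42.0, other uses of the replicate number, and omissions of libraries.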

Additional observations from a re-analysis of the deposited data

Results flagged for a closer look

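Within 22Rv1, the effect at 0% O2 differed from the mean effect of the other 5 O2 levels, by a test of the difference itself over all 552 miRNAs, for miR-30b-3p (log2 1.60), miR-148a-5p (1.34), miR-1290 (3.01), miR-22-5p (1.34) and miR-191-3p (-1.06). Against the mean of 0.2 and 0.5% O2 the difference was called for miR-148a-5p (1.51), miR-30b-3p (1.42), miR-22-5p (1.48) and miR-1290 (3.16). miR-148a-5p is the one of these whose effects had opposite signs, log2 0.90 at 0% O2 and -0.44 in the mean of the other levels. The values of miR-1290 are descriptions and no test result, since it was below 5 CPM in every other 22Rv1 library and was tested only because of its level at 0% O2.

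Between the lines, the effect at 0% O2 in 22Rv1 minus that in PC-3 was called for miR-210-5p (1.56), miR-30b-3p (1.52), miR-190b (3.72), miR-27a-5p (1.45), miR-21-3p (1.15), miR-1290 (4.20), miR-22-5p (1.35), miR-30d-3p (0.95), miR-148a-5p (1.23), miR-181a-3p (1.35), miR-26b-3p (-1.49) and miR-191-3p (-1.04). miR-190b, miR-1290 and miR-148a-5p were at 14.2 CPM or less in the 4 PC-3 libraries of this level. No explanation was tested for any of these differences.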

How the results depend on the processing

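The number called at 0% O2, 30, was between 22 and 38 under 9 alternatives (DESeq2 size factors 29, the authors' factors 29, no filter 26, at least 20 CPM 22, DESeq2 27, no robust dispersion 32, no replicate block 26, without 3 libraries 38, identical entries once 30). It was 18 (12 higher, 6 lower) with scaling to the library total without TMM. With a replicate block within each O2 level it was 51 (33 higher, 18 lower) and held all 30. In a fit of the 4 libraries alone with the block it was 107 (64 higher, 43 lower) and held 29. Leaving out 1 of the 4 libraries gave 10 to 15. In all, 9 of the 30 calls were kept in every alternative and omission that could test them: miR-30b-3p, miR-210-5p, miR-210-3p, miR-191-3p, miR-27a-5p, miR-30d-3p, miR-1290, miR-22-5p and miR-190b. Without 1 library at 0% O2 miR-1290 did not pass the filter and gave no value. It was tested only because of its level at 0% O2, so its being kept is a description and no support.

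The 5 differences from the other levels became 8 (7 higher) with DESeq2, 12 (9 higher) with the replicate block within each O2 level, 9 (7 higher) without the 3 libraries that stood apart (5% replicate 1, its control replicate 1 and 0.5% replicate 1, chosen after seeing the data), and 2 to 4 with 1 library omitted. The 4 differences from 0.2 and 0.5% became 2 to 3 with 1 library omitted. The 12 differences between the lines became 19 (14 higher) with the replicate block within each level and 7 to 11 with 1 library omitted. The change of let-7a-5p, log2 -0.03 and not called, ranged from -0.17 to 0.08 with 1 library omitted, with a sign change to 0.077 without anoxia replicate 2 and to 0.0021 without control replicate 2. The cause of these changes was not tested. With 2 libraries per group and 1.95 CPM resting on 5 counts, changes of rare miRNAs were not detectable unless large.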
